A study of Rattus norvegicus with 16 samples.

Results

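The receptors for extracellular adenosine and for ATP and ADP were described by a fixed list of 10 genes. The list was chosen with earlier results of these data known. It held the adenosine receptors Adora1, Adora2a, Adora2b and Adora3 and the ATP-gated channels P2rx2, P2rx3, P2rx4 and P2rx7. It also held the G protein-coupled nucleotide receptors P2ry1 and P2ry12. Each gene was represented by the single-gene probe with the highest mean over all 16 arrays. All 10 genes were measured, by 11 probes in all, among 18166 genes named by such probes. The arrays came from carotid bodies of Wistar rats 9 to 11 weeks old, with tissue of both sides mixed. Dispersed cells were sorted with an antibody to HNK-1, a sugar epitope of neural adhesion molecules. HNK-1 positive cells are called neuroblasts and HNK-1 negative cells glomus cells. The 4 groups were normoxic glomus cells and normoxic neuroblasts, from rats in ambient air, and hypoxic glomus cells and hypoxic neuroblasts, from rats kept for 3 days in hypoxic chambers, with 4 arrays each. The labels give no oxygen level and do not say whether each array had rats of its own, so p-values measure the spread between these samples, which may be technical.

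Glomus cells are the oxygen-sensing cells of the carotid body and release ATP together with other transmitters. In the rat, ATP excites the sensory nerve endings through P2X channels and reaches the glial type II cells through P2Y receptors, while ectonucleotidases break it down to ADP, AMP and adenosine. Adenosine then acts back on glomus cells and nerve endings, through receptors that raise cyclic AMP (Adora2a, Adora2b) or lower it (Adora1, Adora3).

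The sort and the arrays set limits on what the values stand for. The mean level of 11 glomus cell markers in log2 units was 10.05 to 10.24 in glomus cells and 9.28 to 9.61 in neuroblasts of normoxic rats, and 9.88 to 10.10 and 8.99 to 9.73 in those of hypoxic rats. Markers of neuroblasts and immature neurons averaged 6.81 to 7.01 in glomus cells and 7.78 to 8.27 in neuroblasts of normoxic rats. In hypoxia they averaged 6.50 to 6.77 and 6.58 to 7.08. Of these 10 markers 6 were higher in normoxic neuroblasts, where 0.996% of all probes were. Between the hypoxic populations 0 of the 10 passed, where only 0.283% of all probes passed. Macrophage and endothelial markers averaged higher in the glomus cells, the latter in part through Cldn5 (8.39 against 4.74 in normoxia). In normoxic neuroblasts macrophage and endothelial markers averaged 4.06 to 4.54 and 4.07 to 4.65, where array medians were 4.40 to 4.61. Without detection calls their presence in that sort is not shown. Array medians were 4.40 to 4.64 in the normoxic and 4.71 to 4.94 in the hypoxic groups, and the median of all probes was 0.17 higher after hypoxia in glomus cells and 0.25 higher in neuroblasts. Values are therefore also given after centring each array on its median. Across probes, hypoxic neuroblast replicate 1 correlated with its group mates at 0.914 on average and so stood apart, where every other array reached at least 0.949. In such samples fewer cells of a type and less RNA per cell cannot be told apart.

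Of the 10 receptor genes, Adora2a differed between the populations in normoxia and fell with hypoxia in glomus cells. P2ry12 fell with hypoxia in neuroblasts, a call that 4 of 25 alternatives lost. Its difference in glomus cells, -0.64, did not pass. Adora1 rose with hypoxia in both populations, though not after centring. The other 7 genes passed in none of the 5 comparisons. Of all probes, 1.82% passed between the normoxic populations, 18.9% for hypoxia in glomus cells and 32.1% for hypoxia in neuroblasts. A gene passed at an adjusted p under 0.05, from limma with Benjamini-Hochberg adjustment over all 30429 probes. Group values are means ± SD (n = 4), and errors of differences are limma standard errors. The group means of 6 genes spanned at most 0.5 on the log2 scale. In 8 genes each group overlapped its neighbour in the order of means. The 2 exceptions were Adora2a and P2rx3, where the highest group stood apart from the next. Neither the spans nor these overlaps were counted over all probes, so the counts only describe the members.

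**Figure D1:**
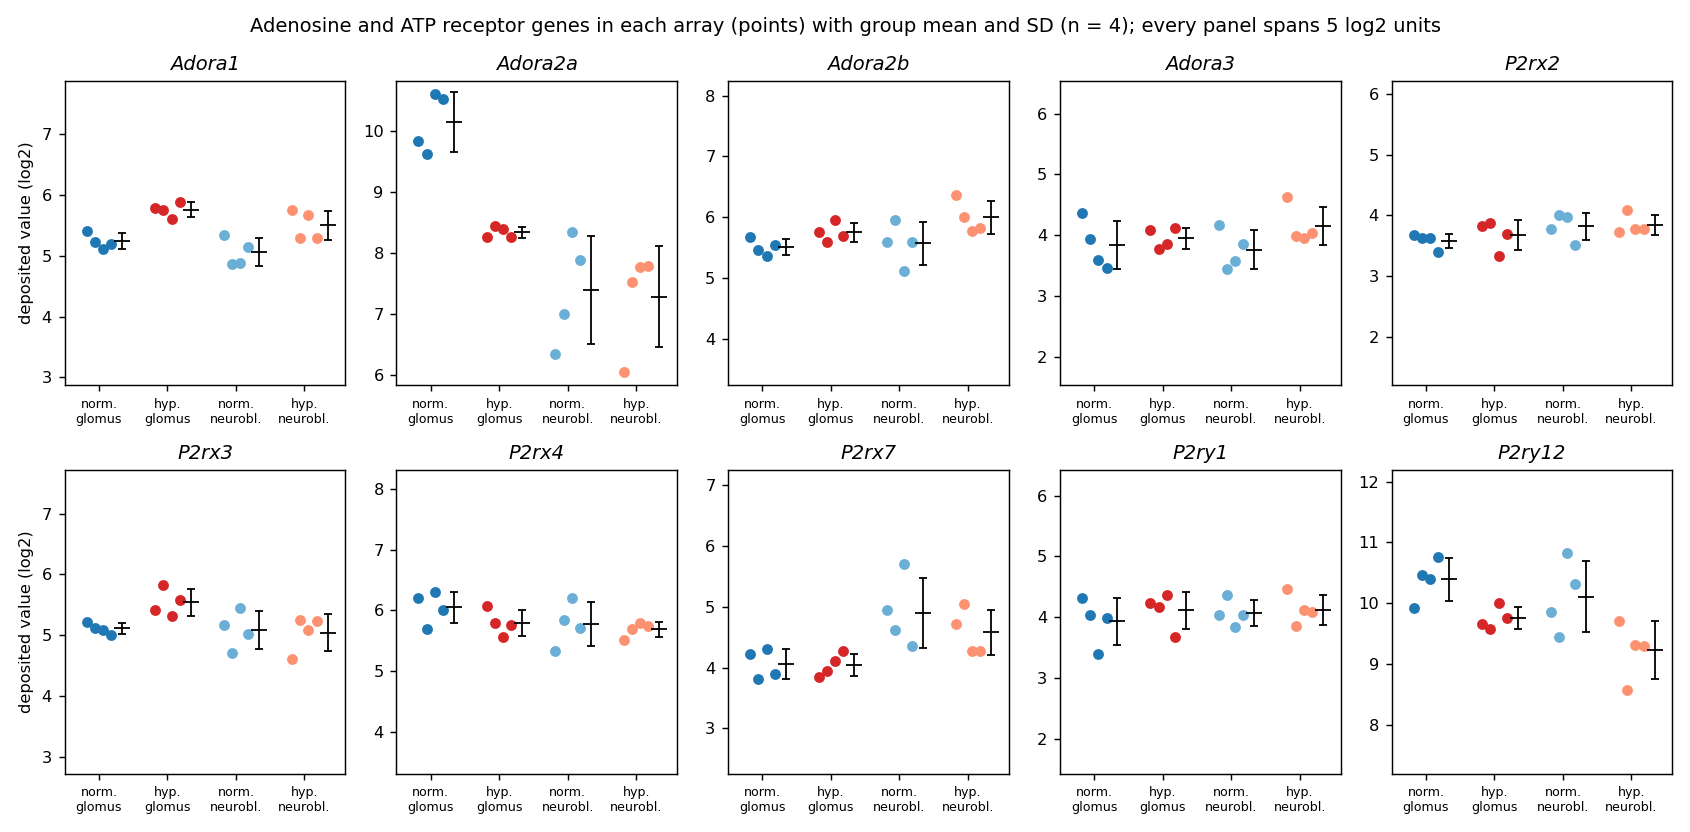
Deposited log2 value (vertical axis, 5 log2 units in every panel) of each of the 10 receptor genes in the 4 groups (horizontal axis), with a point per array and the group mean and SD beside the points (n = 4). Adora2a in normoxic glomus cells lies at 9.63 to 10.61, above all other arrays, and most other genes differ little between groups.

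Adora2a encodes the adenosine receptor that stimulates cyclic AMP through Gs proteins. Its log2 values in normoxic glomus cells were 9.85, 9.63, 10.61 and 10.54 in replicates 1 to 4, and in normoxic neuroblasts 6.34, 7.0, 8.34 and 7.88. In hypoxic glomus cells they were 8.27, 8.44, 8.39 and 8.27, and in hypoxic neuroblasts 6.05, 7.52, 7.77 and 7.79. All 4 normoxic glomus arrays lay above every array of the other groups, the 4 hypoxic glomus arrays lay close together, and both neuroblast groups were spread widely and overlapped each other. The mean was 10.16 ± 0.49 for normoxic and 8.34 ± 0.09 for hypoxic glomus cells, 7.39 ± 0.89 for normoxic and 7.28 ± 0.83 for hypoxic neuroblasts. In that order only the first 2 groups were apart, since normoxic neuroblast replicate 3 reached into the hypoxic glomus range.

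In normoxia Adora2a was 2.77 ± 0.41 log2 units lower in neuroblasts than in glomus cells, or 6.81-fold (adjusted p = 0.000712). After 3 days of hypoxia it was 1.81 ± 0.41 lower in glomus cells than in normoxia, a 3.52-fold fall (difference -1.81, 95% interval -2.67 to -0.96, adjusted p = 0.00436), and -2.03 after centring (adjusted p = 0.00486). These comparisons share the normoxic glomus arrays. Leaving out any 1 of the 16 arrays left the first difference between -3.08 and -2.42 and the second between -1.99 and -1.66, with adjusted p up to 0.00476 and 0.0194. In neuroblasts the hypoxia difference was -0.11 ± 0.41 (95% interval -0.97 to 0.75, adjusted p = 0.844), and 0.30 without hypoxic neuroblast replicate 1. The test of the difference between the 2 hypoxia responses gave 1.71 ± 0.58 (95% interval 0.49 to 2.92) with an unadjusted p of 0.00854 and an adjusted p of 0.524, so a different response of the populations did not pass. Within hypoxia the 4 neuroblast values lay below the 4 glomus values, but the difference of -1.06 ± 0.41 did not pass (adjusted p = 0.358), and it was -0.65 without hypoxic neuroblast replicate 1.

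Markers of other cells that can carry adenosine receptors moved with the populations. The mean level of 15 macrophage markers was 4.81 to 6.45 in glomus cells and 4.06 to 4.54 in neuroblasts of normoxic rats, and 5.81 to 6.34 and 4.51 to 4.99 in those of hypoxic rats. In normoxia 6 of them were lower in neuroblasts, where 0.828% of all probes were. In glomus cells 4 rose and 0 fell with hypoxia, where 9.37% of all probes rose and 9.5% fell. Of 8 endothelial markers measured, at 5.03 to 6.59 in normoxic and 5.76 to 6.67 in hypoxic glomus cells and at 4.07 to 4.65 and 5.02 to 5.32 in the corresponding neuroblasts, 1 was lower in normoxic neuroblasts and 2 rose in glomus cells. Within normoxic glomus cells the macrophage level was 6.45, 4.98, 5.57 and 4.81 in replicates 1 to 4. Adora2a was at 9.85, 9.63, 10.61 and 10.54 there. Without normoxic glomus replicate 1 the Adora2a difference between the normoxic populations was -2.87 and its hypoxia difference in glomus cells -1.92. The T and NK cell list, at 3.54 to 4.46 over all arrays, had 0 of 8 markers lower in normoxic neuroblasts. The part of these cells in the Adora2a values was not tested.

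The genes most like Adora2a were taken as those with the smallest root mean square difference over the 16 arrays, each centred on its own mean. They were Cacna2d2 (0.44), an auxiliary subunit of voltage-gated calcium channels, Il18rap (0.51), an accessory chain of the interleukin-18 receptor, and Gjd2 (0.53), a connexin of electrical synapses, where the SD of Adora2a over the arrays was 1.33. Cacna2d2 averaged 9.74 and 8.25 in normoxic and hypoxic glomus cells and 7.64 and 7.12 in the corresponding neuroblasts. Gjd2 averaged 9.22, 7.56, 7.58 and 6.66 in the same order. This is a description of likeness over arrays that share groups, and was not tested.

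**Figure D2:**
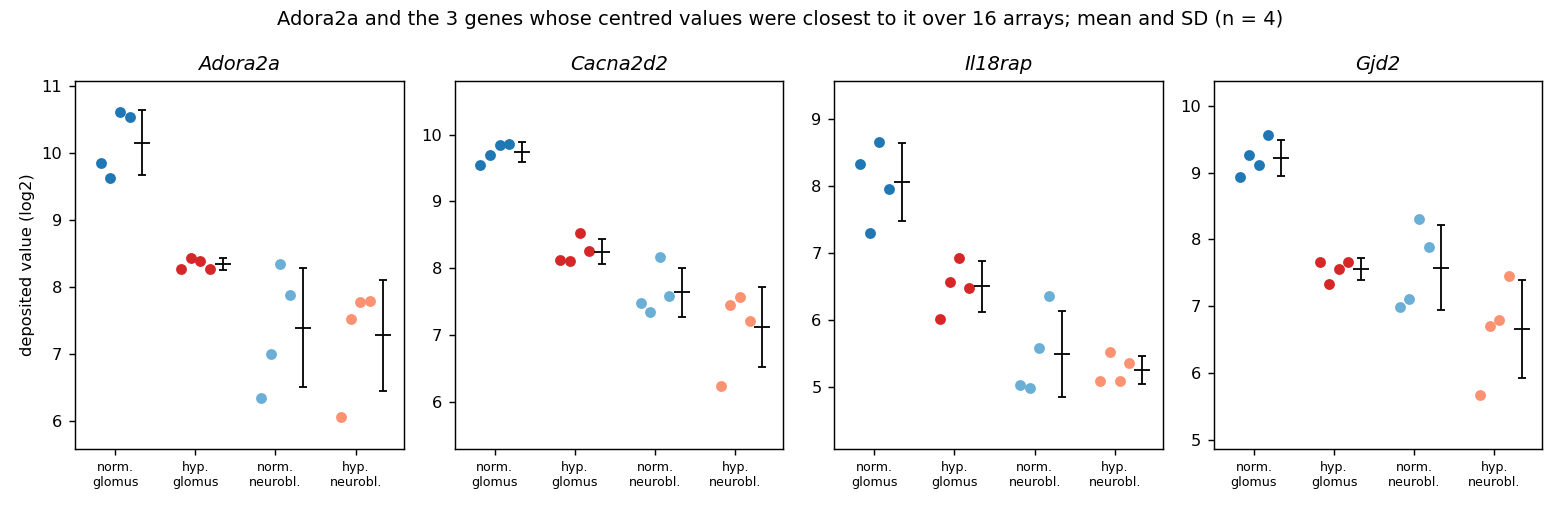
Deposited log2 values (vertical axis, 5.5 log2 units in every panel) of Adora2a and of the 3 genes closest to it over the 16 arrays, by group (horizontal axis), with a point per array and the group mean and SD (n = 4). In each of these genes the 4 normoxic glomus arrays are the highest, and hypoxic glomus arrays lie below them.

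The other receptor of the cyclic AMP-raising pair, Adora2b, has a lower affinity for adenosine and is known in human cells as a target of hypoxia-inducible factors. Its values were 5.68, 5.46, 5.37 and 5.54 in normoxic glomus cells and 5.76, 5.60, 5.95 and 5.69 in hypoxic glomus cells. In neuroblasts they were 5.60, 5.96, 5.11 and 5.60 in normoxia and 6.37, 6.01, 5.77 and 5.83 in hypoxia. All neighbouring groups overlapped. The hypoxia difference was 0.24 ± 0.19 in glomus cells (adjusted p = 0.4) and 0.43 ± 0.19 in neuroblasts (95% interval 0.03 to 0.82, adjusted p = 0.0851), and after centring the latter was 0.15 (adjusted p = 0.582). It was 0.56 without normoxic neuroblast replicate 2, where it passed (adjusted p = 0.0381), and 0.30 without hypoxic neuroblast replicate 1. Between the populations Adora2b differed by 0.06 ± 0.19 in normoxia and 0.24 ± 0.19 in hypoxia.

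Adora1 encodes a Gi-coupled adenosine receptor that lowers cyclic AMP. Its values were 5.41, 5.23, 5.11 and 5.20 in normoxic and 5.79, 5.75, 5.60 and 5.89 in hypoxic glomus cells. In neuroblasts they were 5.35, 4.86, 4.89 and 5.14 in normoxia and 5.75, 5.29, 5.67 and 5.29 in hypoxia. The glomus groups did not overlap, while normoxic neuroblast replicate 1 lay above hypoxic neuroblast replicates 2 and 4. Adora1 rose by 0.52 ± 0.16 in glomus cells (1.43-fold, adjusted p = 0.0338) and by 0.44 ± 0.16 in neuroblasts (1.36-fold, adjusted p = 0.0488), beside shifts of the median of all probes of 0.17 and 0.25. After centring, the differences were 0.30 (adjusted p = 0.185) and 0.16 (adjusted p = 0.495), and with quantile normalization 0.46 (adjusted p = 0.0726) and 0.39 (adjusted p = 0.104). The call in glomus cells ended without normoxic glomus replicate 2, 3 or 4 or hypoxic glomus replicate 1, 2 or 4 (adjusted p up to 0.0987), and the call in neuroblasts in 13 of the 16 fits that left out an array, all but those without normoxic neuroblast replicate 1 or hypoxic neuroblast replicate 2 or 4 (adjusted p up to 0.124). The response did not pass as different between the populations (-0.08 ± 0.23, 95% interval -0.57 to 0.41, adjusted p = 0.968), nor did the populations in either condition (-0.18 ± 0.16 and -0.26 ± 0.16).

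The genes closest to Adora1 over the 16 arrays were Gpr152, an orphan receptor, and Mt4, a metallothionein (both 0.13), and Rhcg, an ammonia transporter (0.14), against an SD of Adora1 of 0.32. Their group means ran from 3.84 to 4.55, with both hypoxic groups above the normoxic groups. All of these means lay below the array medians of their groups, 4.40 to 4.64 in normoxia and 4.71 to 4.94 in hypoxia. The median of all probes rose as well, by 0.17 and 0.25, and the likeness was not tested.

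Promoter windows are shown for Adora1, which passed for hypoxia in both populations on the deposited scale, and for Adora2b, which passed in neither but is the member known as a hypoxia-inducible factor target. They come from RefSeq (rat build GRCr8) and run from 250 bases before to 50 bases after a gene's start, 5′ to 3′ on the gene's strand. The core that hypoxia-inducible factors bind, ACGTG or GCGTG, was searched on both strands, with overlapping matches allowed, and a match is in capitals.
Adora1, chr13:48246782-48247081, minus strand: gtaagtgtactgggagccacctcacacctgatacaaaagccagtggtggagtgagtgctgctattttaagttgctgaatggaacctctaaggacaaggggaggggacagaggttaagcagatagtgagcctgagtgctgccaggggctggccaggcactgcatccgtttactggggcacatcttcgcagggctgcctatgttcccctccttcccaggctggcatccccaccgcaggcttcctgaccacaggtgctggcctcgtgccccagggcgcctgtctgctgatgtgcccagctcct
Adora2b, chr10:47439462-47439761, plus strand: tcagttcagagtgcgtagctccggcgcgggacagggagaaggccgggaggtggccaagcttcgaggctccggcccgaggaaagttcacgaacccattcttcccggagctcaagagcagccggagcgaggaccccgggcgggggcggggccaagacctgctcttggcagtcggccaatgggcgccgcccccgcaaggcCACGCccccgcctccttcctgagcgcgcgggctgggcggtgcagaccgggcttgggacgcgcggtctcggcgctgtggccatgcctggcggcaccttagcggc

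The Adora2b window held 1 match, read as CACGC on the gene's strand, which begins 53 bases before the start, and 33 CG pairs. The Adora1 window held no match and 5 CG pairs. Of the 10 genes, 7 had a window in the table, with 2 for P2rx3, and 2 of these 8 windows held a match, those of Adora2b and P2ry1. Over all 33469 windows of this length 41.6% held one, so a match is common, and these letters do not show that a factor binds. Adora2a, P2rx2 and P2ry12 had no window. Of the 10 genes 9 had the same gene ID in the probe annotation and in RefSeq, and Adora3 was matched by its symbol.

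Adora3 encodes the other Gi-coupled adenosine receptor, which is prominent on rodent mast cells. Its values ranged from 3.46 to 4.36 in normoxic and 3.77 to 4.11 in hypoxic glomus cells, and from 3.45 to 4.16 in normoxic and 3.95 to 4.62 in hypoxic neuroblasts, so that all groups overlapped. Its hypoxia difference was 0.11 ± 0.22 in glomus cells (95% interval -0.35 to 0.58) and 0.39 ± 0.22 in neuroblasts (95% interval -0.08 to 0.85, adjusted p = 0.174). A second Adora3 probe gave 0.19 ± 0.21 and 0.33 ± 0.21. Adora3 was among 4 receptor genes, with P2rx2, P2rx7 and P2ry1, whose probe lay in the dimmer 50% of all probes. None of the 10 lay in the dimmest 25%, and no detection calls were used here.

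P2rx2 and P2rx3 encode the subunits of the ATP-gated channels of the rat sensory nerve endings that contact glomus cells. P2rx2 lay between 3.33 and 4.09 in all arrays, and its group means were 3.58 ± 0.12 for normoxic and 3.68 ± 0.25 for hypoxic glomus cells, 3.82 ± 0.22 for normoxic and 3.84 ± 0.17 for hypoxic neuroblasts. P2rx3 was at 5.22, 5.11, 5.09 and 5.01 in normoxic and at 5.42, 5.83, 5.32 and 5.58 in hypoxic glomus cells. In neuroblasts it was at 5.17, 4.70, 5.45 and 5.02 in normoxia and at 4.61, 5.25, 5.09 and 5.23 in hypoxia. The hypoxic glomus arrays lay above all normoxic glomus and hypoxic neuroblast arrays, but neither difference passed: 0.43 ± 0.19 with hypoxia in glomus cells (95% interval 0.03 to 0.83, adjusted p = 0.126) and -0.49 ± 0.19 for neuroblasts against glomus cells in hypoxia (adjusted p = 0.358). The first difference was 0.21 after centring (adjusted p = 0.615) and 0.35 with quantile normalization (adjusted p = 0.339), while with array weights it was 0.46 and passed (adjusted p = 0.029). Peripheral sensory neuron markers, of which 8 were measured, averaged 5.02 to 5.35 in normoxic and 5.03 to 5.30 in hypoxic glomus cells. In neuroblasts they averaged 5.53 to 5.73 in normoxia and 5.22 to 5.50 in hypoxia. Isl1 and Prph raised this level: they averaged 9.31 and 9.11 in normoxic glomus cells, where the rest averaged 3.30 to 4.41. The part of sensory neurons in the P2rx3 values was not tested.

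P2rx4 and P2rx7 encode ATP-gated channels best known from macrophages and microglia. They lie on rat chromosome 12 with only 1 annotated gene start between them, that of a pseudogene. P2rx4 was at 6.20, 5.70, 6.30 and 6.0 in normoxic glomus cells, and its other groups ranged from 5.33 to 6.21 and overlapped it. Its differences were -0.28 ± 0.19 for neuroblasts in normoxia and -0.26 ± 0.19 for hypoxia in glomus cells, with no call. P2rx7 was at 4.94, 4.62, 5.70 and 4.35 in normoxic neuroblasts and at 4.22, 3.81, 4.31 and 3.89 in normoxic glomus cells. In hypoxia it was at 4.72, 5.04, 4.28 and 4.27 in neuroblasts and at 3.85, 3.95, 4.11 and 4.27 in glomus cells. The normoxic groups did not overlap, and the difference of 0.85 ± 0.25 (1.8-fold, 95% interval 0.31 to 1.38) did not pass (adjusted p = 0.13). In hypoxia it was 0.53 ± 0.25 (adjusted p = 0.45), where replicate 4 of each population had the same value. Of 15 macrophage markers, 6 and 7 were lower in neuroblasts in normoxia and hypoxia, where 0.828% and 0.145% of all probes were. Type II and glial markers, of which 8 were measured, averaged 4.90 to 5.40 in glomus cells and 5.55 to 5.88 in neuroblasts of normoxic rats. In hypoxia they averaged 5.38 to 5.70 and 6.05 to 6.49. Of these 8, 1 was called higher in neuroblasts in normoxia and 0 in hypoxia, where 0.996% and 0.138% of all probes were. The part of either cell type in the P2rx7 values was not tested.

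P2ry1 encodes a Gq-coupled ADP receptor. Its values ran from 3.39 to 4.46 over all arrays with group means between 3.93 ± 0.39 and 4.12 ± 0.25, and its 4 pairwise differences lay between 0.01 and 0.18.

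P2ry12 encodes the Gi-coupled ADP receptor of platelets and microglia, which is the target of antiplatelet drugs. Its values were 9.92, 10.47, 10.40 and 10.76 in normoxic and 9.65, 9.58, 10 and 9.76 in hypoxic glomus cells. In neuroblasts they were 9.85, 9.45, 10.82 and 10.31 in normoxia and 9.71, 8.57, 9.32 and 9.30 in hypoxia. Within each population the condition groups overlapped, through normoxic glomus replicate 1 and hypoxic glomus replicate 3, and through normoxic neuroblast replicate 2 and hypoxic neuroblast replicate 1. P2ry12 fell in hypoxic neuroblasts by 0.88 ± 0.28 on the log2 scale, or 1.84-fold (95% interval -1.47 to -0.29, adjusted p = 0.0239, and -1.16 after centring). In glomus cells the difference was -0.64 ± 0.28 (95% interval -1.23 to -0.05, adjusted p = 0.124). It passed there when only the 2 glomus groups were fitted (-0.64, adjusted p = 0.0314) and with array weights (-0.74, adjusted p = 0.022), but not after centring (-0.85, adjusted p = 0.0623). The responses did not pass as different (-0.24 ± 0.39, adjusted p = 0.943), nor did the populations in normoxia (-0.28 ± 0.28) or hypoxia (-0.52 ± 0.28).

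The P2ry12 call in neuroblasts rested on several arrays. It ended without normoxic neuroblast replicate 3 (-0.65, adjusted p = 0.0897), normoxic neuroblast replicate 4 (-0.81, adjusted p = 0.0632) or hypoxic neuroblast replicate 2 (-0.66, adjusted p = 0.076), and when only the 2 neuroblast groups were fitted (adjusted p = 0.0777). Without hypoxic neuroblast replicate 1 it was -1.04 (adjusted p = 0.0127). Macrophage markers are known to accompany P2ry12 in microglia and some macrophages. They averaged 4.06 to 4.54 in normoxic and 4.51 to 4.99 in hypoxic neuroblasts, lower than in glomus cells. Platelet markers, of which 4 were measured, averaged 4.52 to 5.51 in normoxic and 5.72 to 6.12 in hypoxic glomus cells. In the corresponding neuroblasts they averaged 4.24 to 4.50 and 4.43 to 5.71. With hypoxia 0 of 4 passed in neuroblasts, where 32.1% of all probes passed. In glomus cells 1 rose and 3 did not pass, where 9.37% of all probes rose. The largest difference in glomus cells was 3.30, that of Pf4 (5.82 to 9.12). The part of these cells in the P2ry12 values was not tested. The genes closest to P2ry12 over the 16 arrays were Capza1, an actin capping subunit (0.23), Tpd52 (0.24) and Wbp11, a splicing factor (0.25), against an SD of P2ry12 of 0.59.

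The counts of receptor genes can be read against all probes. In normoxia 1 of 10 receptor genes differed between the populations, and it was lower in neuroblasts, where 1.82% of all probes passed (0.996% higher, 0.828% lower). In hypoxia limma passed 0 of 10 (2 at an unadjusted p under 0.05), where 0.283% of probes passed (0.138% higher, 0.145% lower). With hypoxia 1 rose and 1 fell in glomus cells, where 18.9% of all probes were called (9.37% higher, 9.5% lower). The same counts in neuroblasts stood beside 32.1% of all probes (18.4% higher, 13.7% lower). The number of all probes passed, hypoxic minus normoxic glomus cells, was 2852 higher and 2892 lower, and 1370 higher and 3783 lower after centring. The number of all probes passed, hypoxic minus normoxic neuroblasts, was 5596 higher and 4159 lower, against 1826 and 5464 after centring and 3278 and 3701 with quantile normalization. The share of receptor genes called after hypoxia was thus near that of all probes or below it. For the difference between the responses limma passed 0 of 10 (1 at an unadjusted p under 0.05), where 0.0789% passed (0.0263% higher, 0.0526% lower). Groups did not overlap in 2 receptor genes between the normoxic populations (7.39% of all probes), in 2 between the hypoxic populations (4.48%), in 3 for hypoxia in glomus cells (26.4%) and in 0 for hypoxia in neuroblasts (28%). The median difference of the 10 genes was -0.05 between the normoxic and between the hypoxic populations, 0.11 for hypoxia in glomus cells and -0.01 for hypoxia in neuroblasts, beside -0.01, 0.04, 0.17 and 0.25 over all probes.

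**Figure D3:**
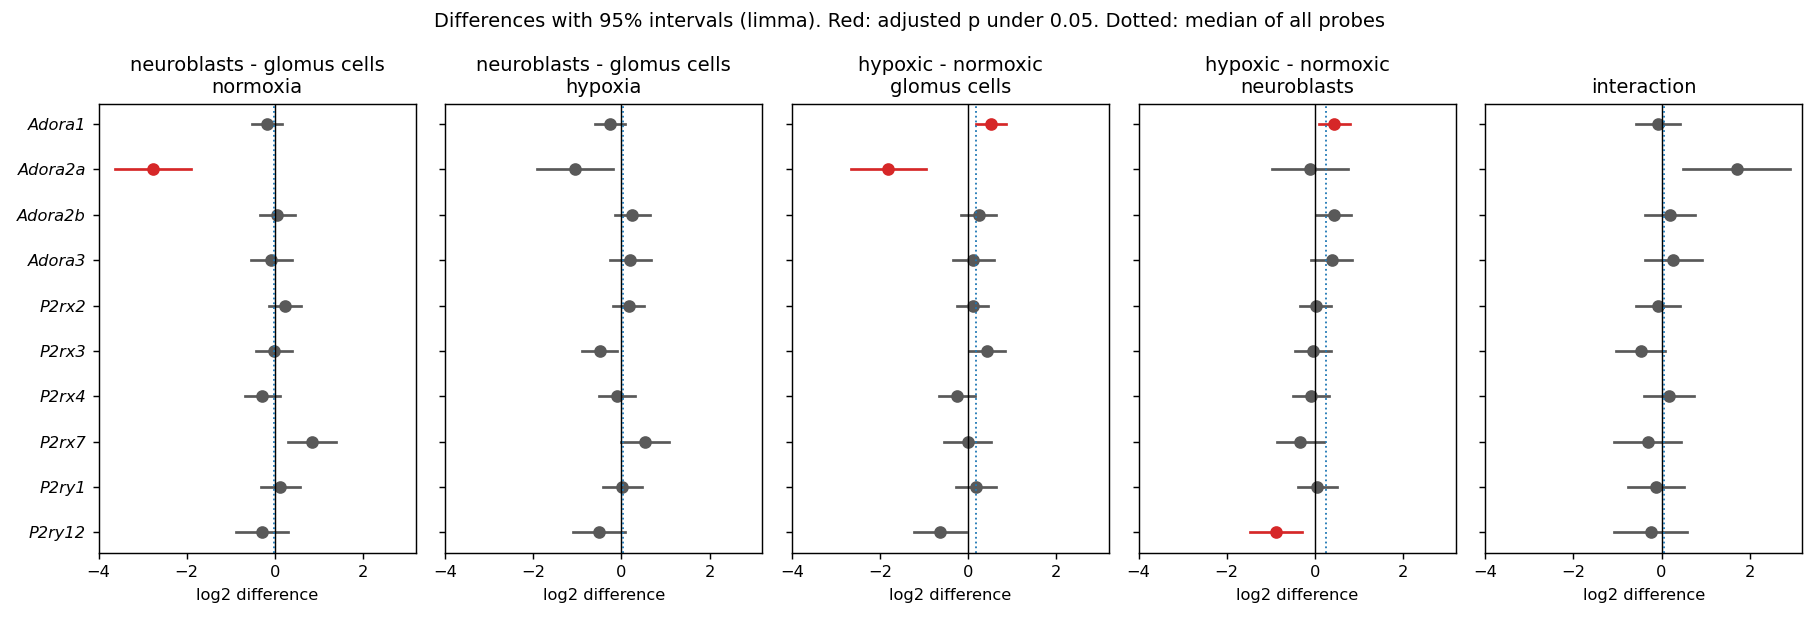
Log2 differences of the 10 receptor genes (rows) in the 5 comparisons (panels), with limma 95% intervals as bars. Genes with an adjusted p under 0.05 are in red, and the dotted line is the median difference of all probes. Adora2a, at -2.77 and -1.81, is the member farthest from 0 between the normoxic populations and for hypoxia in glomus cells, and the intervals of most other genes cross 0.

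Other genes of purine signalling were taken from fixed lists, which were chosen with earlier results of these data known. Of the 9 other P2X and P2Y receptor genes, limma passed 0 between the populations in normoxia, where their differences lay between -0.75 and 0.39, 0 in hypoxia and 0 for hypoxia in glomus cells. The shares of all probes passed there were 1.82%, 0.283% and 18.9%. One of these receptor genes, P2rx6, rose with hypoxia in neuroblasts (0.66 ± 0.24, adjusted p = 0.0448), with overlapping groups. It did not pass after centring (0.37, adjusted p = 0.265), with quantile normalization (0.46, adjusted p = 0.232) or without hypoxic neuroblast replicate 1 (0.42, adjusted p = 0.146). It also did not pass with the replicate number as a block (adjusted p = 0.0556), with array weights (adjusted p = 0.0734) or with only the neuroblast groups fitted (adjusted p = 0.114). With any other array left out, it held only without normoxic neuroblast replicate 2, hypoxic glomus replicate 4 or hypoxic neuroblast replicate 2 or 4.

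Among 7 genes of ATP storage and release, 0 passed between the populations in either condition, where 1.82% (normoxia) and 0.283% (hypoxia) of all probes passed. With hypoxia Calhm2, of a family of ATP-permeable channels, fell by 1.62 ± 0.30 in glomus cells (adjusted p = 0.000975) and by 1.99 ± 0.30 in neuroblasts (adjusted p = 8.87e-05). Lrrc8a, the obligatory subunit of the volume-regulated anion channel, fell in neuroblasts by 1.13 ± 0.19. All 4 hypoxic arrays lay below the 4 normoxic ones for each of these falls.

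Among 9 ectonucleotidase genes measured, 1 was higher and 2 were lower in normoxic neuroblasts than in normoxic glomus cells. Of all probes 0.996% were higher and 0.828% lower there. Entpd3, which hydrolyses ATP and ADP, was 1.55 ± 0.20 higher (adjusted p = 0.00022). Acp3, an acid phosphatase that hydrolyses AMP in mouse sensory neurons, was 2.28 ± 0.34 lower, at 4.21 against 6.50 in glomus cells (adjusted p = 0.000804), and Enpp2, autotaxin, was 1.34 ± 0.18 lower. In hypoxia Acp3 (-2.19 ± 0.34, adjusted p = 0.00678) and Enpp2 (-0.95 ± 0.18, adjusted p = 0.0263) were again lower in neuroblasts, the latter not with quantile normalization (adjusted p = 0.0562), with only the hypoxic groups fitted (adjusted p = 0.16) or without hypoxic glomus replicate 1, 3 or 4 or hypoxic neuroblast replicate 2 or 3 (adjusted p up to 0.0846). With hypoxia Enpp2 fell in glomus cells (-1.27 ± 0.18) and neuroblasts (-0.87 ± 0.18), and Entpd3 fell in neuroblasts (-1.11 ± 0.20). Nt5e, the ectoenzyme that turns AMP into adenosine, rose by 0.47 ± 0.16 in glomus cells and 0.46 ± 0.16 in neuroblasts, but after centring the differences were 0.26 and 0.18, and with quantile normalization 0.22 and 0.12, and did not pass. The difference in neuroblasts also did not pass with array weights (0.36, adjusted p = 0.0859) or with only the neuroblast groups fitted (adjusted p = 0.118). The first call ended without any 1 of the 8 glomus arrays or normoxic neuroblast replicate 3 or 4, and the second without normoxic neuroblast replicate 2 or 3 or hypoxic neuroblast replicate 1 or 2.

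Among 12 genes of adenosine uptake and metabolism, Slc29a4, a transporter of adenosine and monoamines, was 1.97 ± 0.36 higher in normoxic neuroblasts (adjusted p = 0.00508). It fell there by 2.62 ± 0.36 with hypoxia (adjusted p = 4.25e-05). Slc29a1, the main equilibrative nucleoside transporter, fell by 0.94 ± 0.21 in glomus cells (adjusted p = 0.00421) and by 1.63 ± 0.21 in neuroblasts (adjusted p = 2.27e-05). Adenosine deaminase, Ada, rose in glomus cells from 4.50 to 5.65 (1.14 ± 0.26, adjusted p = 0.00421), and adenosine kinase, Adk, fell in neuroblasts by 1.19 ± 0.25. In all, 1 of the 12 rose and 1 fell with hypoxia in glomus cells, where 18.9% of all probes were called. In neuroblasts 1 rose and 3 fell, where 32.1% of all probes were called. Both counts were thus near the share of all probes.

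Of 14 G protein subunit and adenylyl cyclase genes through which these receptors act, 1 was lower in normoxic neuroblasts, by the probe used. It was Gnas, the Gs subunit that couples Adora2a and Adora2b to cyclic AMP (-2.69 ± 0.28, adjusted p = 2.81e-05). This probe averaged 6.32 in normoxic glomus cells and 3.63 in normoxic neuroblasts, where array medians were 4.40 to 4.61. In hypoxia it was again lower (-1.99 ± 0.28, adjusted p = 0.00304), while a second Gnas probe differed by -1.14 (adjusted p = 0.0529) and -0.46 (adjusted p = 0.563). With hypoxia 1 of the 14 rose and 5 fell in glomus cells, where 9.37% of all probes rose and 9.5% fell. In neuroblasts 0 rose and 6 fell, where 18.4% of all probes rose and 13.7% fell. Examples are Adcy1, a calcium-stimulated cyclase, which fell by 2.54 ± 0.25 and 2.42 ± 0.25, and Gnaq, the subunit that couples P2ry1 to phospholipase C, which fell by 1.58 ± 0.19 and 1.63 ± 0.19. The list's median was -0.18 in glomus cells and -0.14 in neuroblasts, beside 0.17 and 0.25 for all probes.

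**Figure D4:**
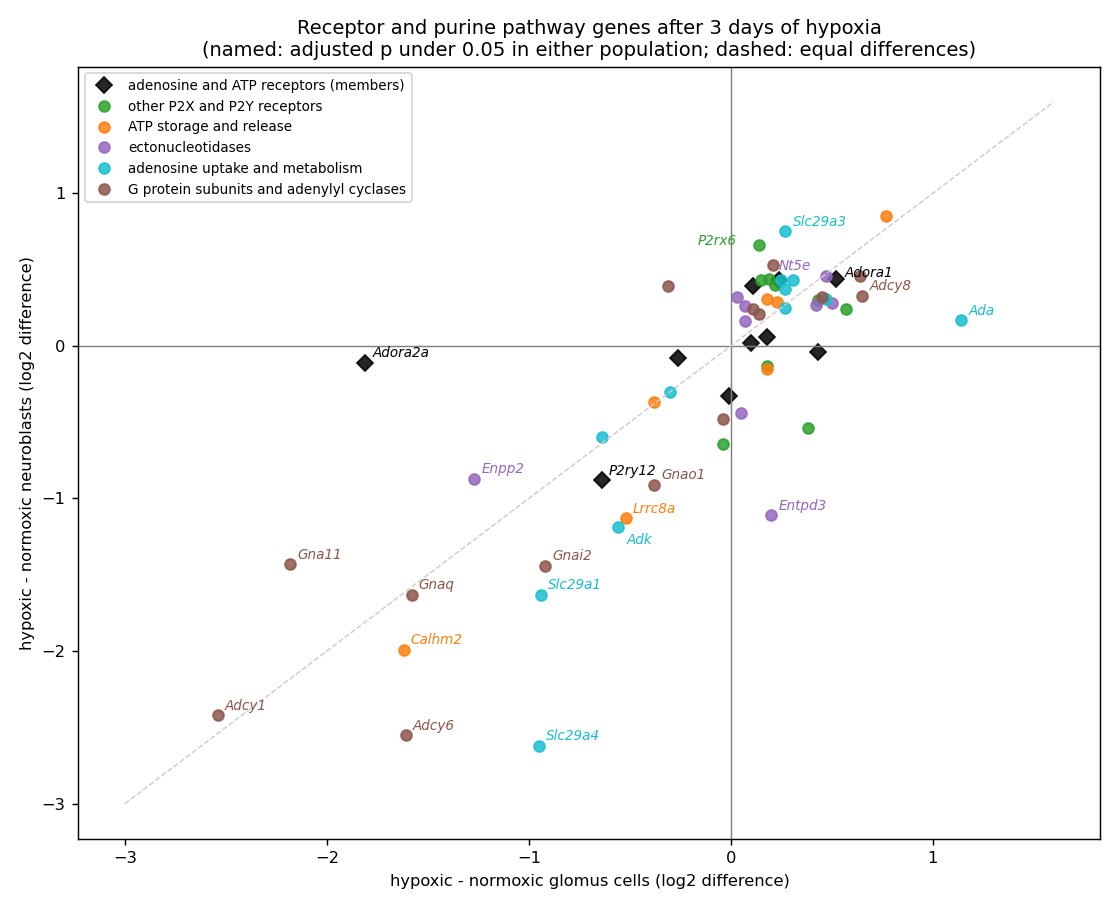
Log2 difference of hypoxic minus normoxic glomus cells (horizontal axis) against that of neuroblasts (vertical axis) for the 10 receptor genes (diamonds) and the genes of the 5 purine pathway lists (circles, coloured by list). Genes with an adjusted p under 0.05 in either population are named, and the dashed line marks equal differences. Adora2a lies at -1.81 and -0.11, while Adcy1 lies at -2.54 and -2.42.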

How the data were processed

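Per the labels, biotinylated cDNA from 500 pg of total RNA per sample was hybridised to Affymetrix arrays, and the submitters' processing notes name Transcriptome Analysis Console. How background and arrays were normalized was not given in any source used here. The deposited values, 0.87 to 13.33 with no stated base, were taken as the authors' log2 signals from their range. Of 30429 probes, 18511 name 1 gene, 575 several and 11343 none in the probe annotation. No probe was filtered out and values were not normalized further. The number of arrays limits the precision.

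Each probe was fitted over all 16 arrays, with 1 mean for every group, in limma 3.58.1 in R 4.3.3 (12 residual degrees of freedom, two-sided tests, Benjamini-Hochberg adjustment over all probes, checked on simulated data). The 5 comparisons were the populations in each condition, the conditions in each population and their interaction. Figures used Python 3.11.15 and matplotlib 3.10.9. All 10 members were named. In the other lists up to 3 genes that passed, with the smallest p, were named per comparison. The members and lists were chosen with earlier results of these data known. Alternatives were centring, quantile normalization, filters on dim probes (25% or 50%), array weights, a variance trend with intensity, fits of the compared groups, a replicate block, averaged probes, a 2-fold threshold and leaving out each array. For pathway genes they were added after seeing the data.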

Additional observations from a re-analysis of the deposited data

Results flagged for a closer look

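In 4 of the 40 sets of 4 arrays tested (10 genes in 4 groups), 1 array lay far from the other 3, with a ratio of its gap to the whole range above Dixon's 95% critical value. Chance alone marks about 1 in 20 such sets. Adora2a was at 6.05 in hypoxic neuroblast replicate 1, the array that stood apart across all probes, against 7.52 for the nearest, and Adora3 was at 4.62 in the same array against 4.03. P2rx2 was at 3.40 in normoxic glomus replicate 4 against 3.63, and at 4.09 in hypoxic neuroblast replicate 2 against 3.77. By limma, 0 of the 10 genes passed for a response that differed between the populations, and 1 had an unadjusted p under 0.05.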

How the results depend on the processing

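Of 1220 values of the receptor genes under alternatives, 1142 kept their direction and side of the threshold, 30 lost and 4 gained a call and 44 changed sign, 0 of which had passed in either fit. The calls of Adora2a held in every alternative run, those of Adora1 and P2ry12 did not. Genes passed for hypoxia in glomus cells numbered 2, and 1 after centring, quantile normalization or a 2-fold requirement, 4 with array weights, and 1 to 2 without single arrays. With the compared groups alone, P2ry12 passed there (adjusted p = 0.0314) beside Adora1 (0.0201) and Adora2a (0.000239). In neuroblasts the genes passed numbered 2, and 1 after centring, quantile normalization, the intensity trend or array weights, 0 with the compared groups alone or a 2-fold requirement, and 0 to 2 without single arrays. The replicate block left the counts of receptor genes at 1, 0, 2, 2 and 0. Same-numbered arrays deviated together only weakly (24 correlations from -0.1 to 0.2, 7 over 0.1, and 6 of 16 arrays closest to their own number). Between the populations they were -0.01, 0.09, 0.19 and 0.13 in normoxia and 0.01, 0.07, 0.03 and -0.10 in hypoxia. The numbers were not taken as pairs, though pairing within a condition is not excluded. Probes passed numbered 555 (443 to 1081 in other fits, 347 to 763 without single arrays) between the normoxic populations, 86 (25 to 151, and 59 to 119) between the hypoxic ones, 5744 (2760 to 9490, and 4096 to 7232) for hypoxia in glomus cells, 9755 (4251 to 10207, and 7404 to 10826) in neuroblasts and 24 (11 to 83, and 11 to 35) for the interaction.

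Signs changed only in differences without a call. After centring P2ry1 was at -0.06 between the hypoxic populations, -0.04 for hypoxia in glomus cells and -0.22 in neuroblasts, P2rx2 at -0.12 and -0.26 for hypoxia in glomus cells and neuroblasts, and Adora3 at -0.10 in glomus cells. With quantile normalization the same differences were -0.08, -0.07 and -0.28 for P2ry1, -0.14 and -0.34 for P2rx2 and -0.12 for Adora3, and Adora2a was at 0.13 for hypoxia in neuroblasts. With array weights Adora3 was at 0.04 between the normoxic populations, P2ry1 at -0.07 between the hypoxic ones, and for hypoxia in neuroblasts Adora2a was at 0.17, P2rx3 at 0.08 and P2ry1 at -0.01. Without single arrays the interaction ran from -0.16 to 0.02 for Adora1 and -0.26 to 0.06 for P2ry1. Differences for hypoxia in neuroblasts ran from -0.46 to 0.3 (Adora2a), -0.08 to 0.08 (P2rx2), -0.17 to 0.11 (P2rx3), -0.23 to 0.06 (P2rx4) and -0.05 to 0.16 (P2ry1), and in glomus cells from -0.01 to 0.29 (Adora3), -0.1 to 0.07 (P2rx7) and 0 to 0.32 (P2ry1). Between the normoxic populations they ran from -0.08 to 0.21 (Adora2b), -0.21 to 0.09 (Adora3), -0.14 to 0.11 (P2rx3) and -0.05 to 0.26 (P2ry1), and between the hypoxic ones from -0.13 to 0.11 (P2ry1). The cause was not tested. Of 670 values of pathway genes, 44 lost a call and 0 changed sign. No batch was labelled, so batch and condition cannot be told apart, and without detection calls differences of dim probes may be understated.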
